A study of Mus musculus with 6 samples.

Results

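The genes described here are the ligands and receptors of the vascular endothelial growth factor (VEGF) and angiopoietin systems, the signals through which other cells of an organ build and remodel its blood and lymph vessels. The list was taken by gene symbol and holds 10 genes, the 5 ligands Vegfa, Vegfc, Pgf, Angpt1 and Angpt2 and the 5 receptors Kdr, Flt1, Flt4, Tek and Tie1. All 10 were measured, each on a single row of the array, among 19938 genes. RNA of whole mouse kidneys at E14.5, a stage at which nephrons are forming, was read on an Affymetrix gene array. Foxd1-/- embryos were compared with wild type littermates from 3 litters of Foxd1+/- parents. Each of the 6 arrays held RNA from a pool of 2 kidney pairs taken from different litters, and each genotype had 3 pools. Embryos were not sexed, any pair of pools must share a litter, and no source used here says which litters a pool holds. Values of single pools are given in the order of their replicate numbers, 1, 2 and 3.

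VEGF ligands bind receptor tyrosine kinases on endothelial cells: Vegfa acts mainly through Kdr, Flt1 binds Vegfa and Pgf, and Flt4 is the receptor for Vegfc on lymphatic endothelium. Angpt1, made by mural and mesenchymal cells, activates the receptor Tek and stabilises vessels. Angpt2 binds the same receptor and in many settings opposes Angpt1, and Tie1 is a related receptor that modulates Tek. In the developing kidney Vegfa is made by podocytes and tubule cells and draws endothelial cells into the glomerulus, while Foxd1-expressing stroma gives rise to pericytes and other mural cells.

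The Foxd1 row checks the genotype labels. It stood at 10.05, 9.77 and 9.71 on the log2 scale in the null-labelled pools and at 9.40, 9.55 and 9.69 in the wild type pools (log2 difference 0.30, SE 0.11, adjusted p = 0.246 by limma). No null-labelled pool lay below a wild type pool. Which exons the null allele lacks is unknown here, and a row outside the deleted part would check nothing. The pools are therefore called by their labels, and each direction rests on those labels. Over all genes null-labelled pool 1 correlated with the wild type pools at a mean r of 0.9906, slightly above its mean r of 0.9896 with the other null-labelled pools. The remaining 5 arrays correlated best with their own group.

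Angpt2, Tek and Kdr rose in the null-labelled pools. Angpt2 rose 1.89-fold (95% interval 1.61 to 2.22), and the receptors Tek and Kdr both rose 1.38-fold. No member fell, and Vegfa, the main ligand of Kdr, had a fold of 0.947 (95% interval 0.827 to 1.08). Adjusted p-values are from limma with Benjamini-Hochberg adjustment over all 19938 genes, and the threshold was 0.05. Thus 3 of 10 members passed as higher and 0 as lower, where 2.4% of all genes passed, 1.64% as higher and 0.767% as lower. An unadjusted p under 0.05 was reached by 7 of the 10, all higher, against 14.1% of all genes in either direction and 8.68% as higher. In 7 of the 10 the 3 null-labelled values all lay above the 3 wild type values and in 0 all lay below, while 19.5% of all genes had groups without overlap, 11.5% higher and 8.04% lower. The difference was above 0 in 9 of the 10, against 54.5% of all genes, and its median was 0.29 against 0.013. The members were chosen with earlier results of these data known. Their counts beside the shares of all genes are therefore a description and not a test. Precision is limited by the 6 arrays, with a median SE of 0.086 over all genes. In whole kidneys a change in the number of endothelial or mural cells and a change in RNA per cell cannot be told apart.

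**Figure D1:**
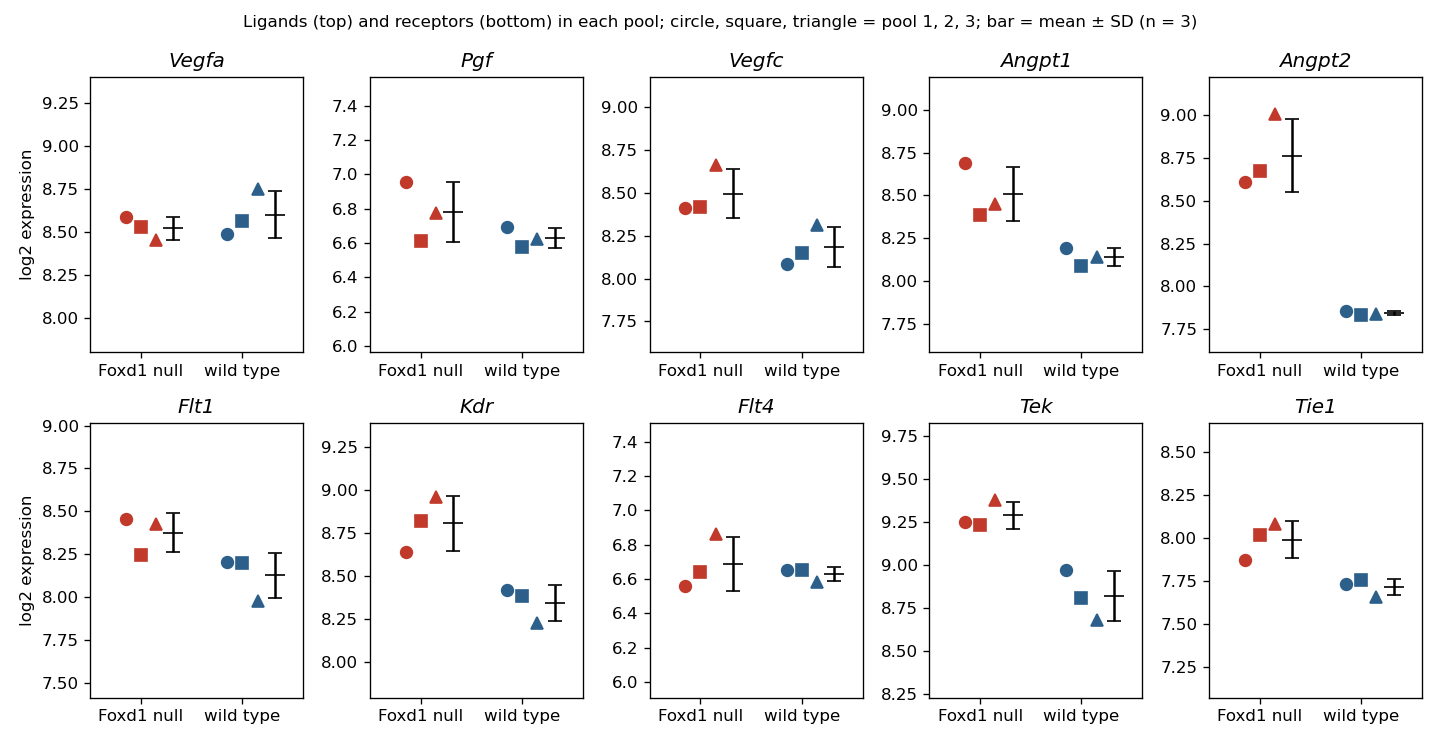
Log2 expression (vertical axis) of each of the 10 genes in the 3 null-labelled (red) and 3 wild type (blue) pools, ligands in the upper row and receptors in the lower row. Circles, squares and triangles are pools 1, 2 and 3, bars are mean ± SD (n = 3), and each panel spans the same number of log2 units. The Angpt2 groups are 0.76 apart at their nearest points, while the groups of Vegfa, Pgf and Flt4 overlap.

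Among the VEGF ligands no gene passed the threshold. Vegfa, the main growth factor of blood vessel endothelium, stood at 8.58, 8.53 and 8.45 in the null-labelled pools and at 8.49, 8.56 and 8.75 in the wild type pools. The groups overlapped, and the highest value was that of wild type pool 3. The log2 difference was -0.079 (SE 0.09, adjusted p = 0.766), with a 95% interval of -0.27 to 0.12. Placental growth factor (Pgf), a ligand of Flt1 and not of Kdr, stood at 6.96, 6.61 and 6.78 in the null-labelled pools and at 6.69, 6.58 and 6.62 in the wild type pools. Null-labelled pool 1 was the highest and pool 2 lay among the wild type values, so the groups overlapped (log2 difference 0.15, SE 0.09, adjusted p = 0.545). Vegfc, the main ligand for lymphatic vessel growth, stood at 8.41, 8.42 and 8.66 in the null-labelled pools and at 8.09, 8.15 and 8.31 in the wild type pools. The groups did not overlap, with a gap of 0.10 between them and null-labelled pool 3 highest, but the difference of 0.31 did not pass (SE 0.10, adjusted p = 0.153).

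Of the VEGF receptors 1 of 3 rose. Kdr, the main signalling receptor for Vegfa on endothelial cells, stood at 8.64, 8.82 and 8.96 in the null-labelled pools and at 8.42, 8.38 and 8.22 in the wild type pools. The groups did not overlap, with a gap of 0.22, and null-labelled pool 3 and wild type pool 3 were the farthest apart. The log2 difference was 0.47 (SE 0.10, adjusted p = 0.0388). The call is close to the threshold: when 1 pool was left out, Kdr passed only without null-labelled pool 1, and adjusted p was up to 0.133 without 1 of the others. It passed in 7 of 15 alternative fits in all, and missed with quantile normalization (adjusted p = 0.0552) and with all rows of the array (adjusted p = 0.169), among others. Flt1, which binds Vegfa tightly and also exists as a secreted form that traps it, stood at 8.45, 8.25 and 8.43 in the null-labelled pools and at 8.21, 8.20 and 7.98 in the wild type pools. Its groups were separated by 0.04 only, and its difference of 0.25 did not pass (SE 0.09, adjusted p = 0.249). The array row does not tell the membrane form from the secreted form here. Flt4, the lymphatic receptor, stood at 6.56, 6.64 and 6.86 in the null-labelled pools and at 6.65, 6.65 and 6.59 in the wild type pools. The groups overlapped with null-labelled pool 1 lowest and pool 3 highest (log2 difference 0.056, SE 0.09, adjusted p = 0.848), and the difference was -0.031 without null-labelled pool 3.

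The angiopoietins held the gene with the largest difference of the 10. Angpt2, the context-dependent antagonist made by endothelial cells at sites of remodelling and by some mural cells, stood at 8.61, 8.67 and 9.004 in the null-labelled pools and at 7.86, 7.83 and 7.84 in the wild type pools. The wild type pools were nearly equal (SD 0.01, n = 3) and the lowest null-labelled pool lay 0.76 above the highest of them. The log2 difference was 0.92 (SE 0.10, adjusted p = 0.00204), and it passed in each of 15 alternative fits that changed the model, scaling, choice of rows or pools, with adjusted p up to 0.0406 when all rows of the array were tested, but not with endothelial markers as a covariate (given below). Without null-labelled pool 3, the pool with the highest value, the difference was 0.80. Angpt1, the agonist of Tek, stood at 8.69, 8.39 and 8.45 in the null-labelled pools and at 8.20, 8.09 and 8.14 in the wild type pools. Its groups did not overlap, with a gap of 0.19, but its difference of 0.37 missed the threshold (SE 0.09, adjusted p = 0.0776). Its highest value was in null-labelled pool 1, the pool in which Angpt2 was lowest of the 3.

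The balance of the angiopoietins was read as log2 Angpt2 minus log2 Angpt1 in each pool, a quantity whose change shows unequal change of the pair and not a ratio of transcript numbers. It was -0.076, 0.28 and 0.55 in the null-labelled pools, against -0.34, -0.26 and -0.30 in the wild type pools. The groups did not overlap, and null-labelled pool 1 was the nearest to the wild type pools. The mean difference between genotypes was 0.55, with p = 0.1 by an exact two-sided permutation test over 3 against 3 pools, the smallest p that this design can give. The authors' deposited table lists 3 of the 10 genes, with folds of null over wild type of 1.92 for Angpt2, 1.38 for Angpt1 and 1.34 for Tek. In the authors' deposited table the p-value for expression of Angpt1 was 0.0992 in wild type and 0.0394 in null, and that of Angpt2 was 0.0299 and 0.0229. The test behind these p-values is unstated.

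Of the angiopoietin receptors Tek rose and Tie1 did not pass. Tek, the receptor tyrosine kinase that binds both angiopoietins, stood at 9.25, 9.23 and 9.38 in the null-labelled pools and at 8.97, 8.81 and 8.68 in the wild type pools. The groups did not overlap, with a gap of 0.27 between null-labelled pool 2 and wild type pool 1. The log2 difference was 0.47 (SE 0.09, adjusted p = 0.0275), and it passed in 10 of 15 alternative fits. When 1 pool was left out it passed if that was null-labelled pool 1 or wild type pool 1 and missed for the other 4, with adjusted p up to 0.112. Tie1, which has no well-established ligand among the angiopoietins and acts together with Tek, stood at 7.87, 8.02 and 8.08 in the null-labelled pools and at 7.73, 7.75 and 7.66 in the wild type pools. Its groups did not overlap, with a gap of 0.12, and its difference of 0.28 did not pass (SE 0.08, adjusted p = 0.133).

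**Figure D2:**
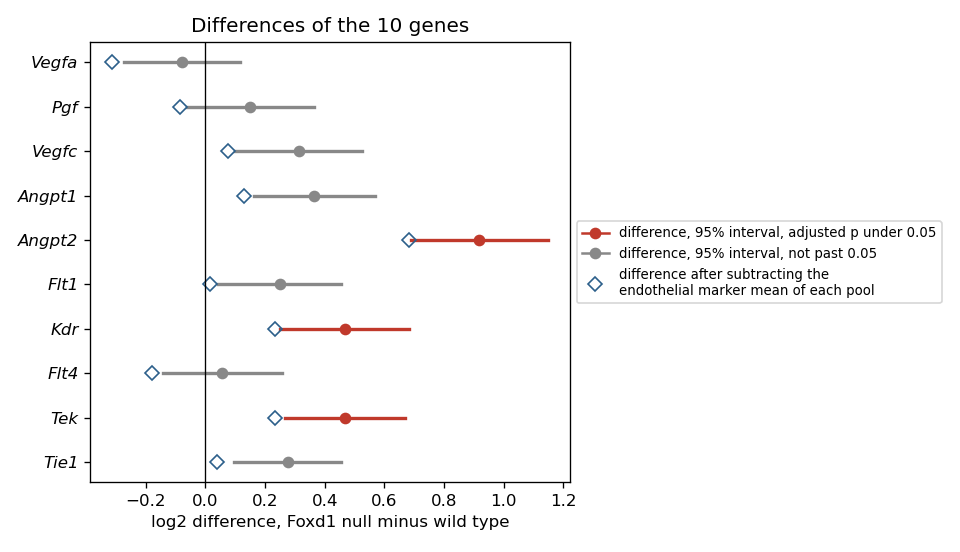
Log2 difference between null-labelled and wild type pools (horizontal axis) for the 10 genes, with 95% intervals from limma. Red marks adjusted p under 0.05, and open diamonds give the difference after the mean of 25 endothelial markers was subtracted in each pool. Angpt2 lies at 0.92 and keeps 0.68 after the subtraction, while Flt4 and Pgf move below 0.

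The sequence before the start of 4 receptor genes is shown because Kdr, Flt1, Tek and Tie1 were the receptors whose groups did not overlap. The RefSeq promoter table (build GRCm38.p6) held 8 of the 10 genes with 10 start sites; Angpt1 and Angpt2 are named only. Each line gives the 250 bases before the start site, with AGGAAG, a core of the motif bound by ETS factors, or its reverse complement in capitals.
Kdr (GRCm38.p6, chr5:75978456-75978705, minus strand): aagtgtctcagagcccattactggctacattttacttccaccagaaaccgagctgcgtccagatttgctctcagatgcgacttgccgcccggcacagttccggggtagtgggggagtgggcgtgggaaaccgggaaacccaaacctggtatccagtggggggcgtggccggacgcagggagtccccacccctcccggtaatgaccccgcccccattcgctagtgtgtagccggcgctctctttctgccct
Flt1 (GRCm38.p6, chr5:147726012-147726261, minus strand): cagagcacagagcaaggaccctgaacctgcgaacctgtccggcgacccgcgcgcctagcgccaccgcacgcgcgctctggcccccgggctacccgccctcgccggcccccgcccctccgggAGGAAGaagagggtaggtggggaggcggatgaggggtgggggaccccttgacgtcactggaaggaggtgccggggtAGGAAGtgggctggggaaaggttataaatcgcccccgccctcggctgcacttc
Tek (GRCm38.p6, chr4:94739039-94739288, plus strand): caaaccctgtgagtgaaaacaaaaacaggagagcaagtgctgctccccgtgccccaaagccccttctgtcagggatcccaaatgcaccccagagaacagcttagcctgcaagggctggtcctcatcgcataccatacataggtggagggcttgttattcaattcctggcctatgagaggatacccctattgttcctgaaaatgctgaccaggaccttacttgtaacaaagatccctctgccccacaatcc
Tie1 (GRCm38.p6, chr4:118489850-118490099, minus strand): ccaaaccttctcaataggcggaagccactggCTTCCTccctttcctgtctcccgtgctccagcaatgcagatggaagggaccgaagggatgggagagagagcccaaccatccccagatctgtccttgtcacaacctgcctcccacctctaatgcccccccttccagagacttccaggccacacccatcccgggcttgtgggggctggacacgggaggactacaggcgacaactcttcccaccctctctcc
The ETS letters occurred in 2 of the 10 promoters, those of Flt1, with 2 matches, and Tie1, with 1, while 29.5% of all 32851 promoters of the same length held them on either strand. The forkhead letters TGTTTAC occurred in 0 of the 10 promoters, against 3.17% of all. The letters ACGTG, the core of the hypoxia response element, occurred in 1 of the 10, at the second Vegfa start site, against 16.6% of all. A match is not a site, and a window without a match says only that these letters are not in it.

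The receptors are genes of endothelial cells, so their values are given beside 25 endothelial markers that hold none of the 10 genes. The mean log2 level of these markers was 8.01, 8.20 and 8.24 in the null-labelled pools, against 7.91, 7.90 and 7.93 in the wild type pools. The groups did not overlap (difference 0.24, exact two-sided permutation p = 0.1, the smallest possible). Of the 25 markers 3 rose, 0 fell and 22 did not pass, and 24 had a difference above 0, with a median of 0.21. In 13 of the 25 the groups did not overlap, all higher, against 11.5% of all genes as higher. An unadjusted p under 0.05 by limma was reached by 13, against 14.1% of all genes. Clec14a, a lectin of vessel walls, rose by 0.65 (SE 0.10), Pecam1, a junction protein, by 0.54 (SE 0.10) and Cd34, a surface sialomucin, by 0.36 (SE 0.08). The count of 3 was between 0 and 7 when 1 pool was left out, 0 if null-labelled pool 2 or wild type pool 1 was dropped, 1 if null-labelled pool 3, wild type pool 2 or wild type pool 3 was dropped, and 7 if null-labelled pool 1 was dropped. It was 6 with an intensity trend, array weights or a filter on low rows, and 0 when all rows of the array were tested.

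After the endothelial marker mean was subtracted in each pool, the Angpt2 difference was 0.68 and its groups still did not overlap. Kdr kept a difference of 0.23 without overlap, and Tek one of 0.23 with overlap. Tie1 was left with 0.040 and Flt1 with 0.014, while Angpt1 was left with 0.13 and overlapping groups. Vegfa stood at -0.31 with overlap, and Flt4 at -0.18 with all null-labelled pools below all wild type pools (exact two-sided permutation p = 0.1). Subtracting the mean of 1 cell type's markers lowers genes of other cell types too, so the values of the ligands are relative to endothelium only. With the marker mean as a covariate in limma the differences were 0.63 for Angpt2 (SE 0.17, adjusted p = 0.359), 0.635 for Angpt1 (SE 0.14, adjusted p = 0.256), 0.41 for Tek (SE 0.18, adjusted p = 0.632) and 0.21 for Kdr (SE 0.16, adjusted p = 0.818). In that fit no member passed, 0 genes of all passed as higher and 1 as lower, and 1527 had an unadjusted p under 0.05. The covariate followed genotype closely (r = 0.851 over the 6 pools), so the fit had little room to tell them apart. Log2 Kdr minus log2 Vegfa was 0.058, 0.30 and 0.51 in the null-labelled pools, against -0.068, -0.18 and -0.53 in the wild type pools. These groups did not overlap, and the receptor and its ligand changed unequally by 0.55 (exact two-sided permutation p = 0.1).

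**Figure D3:**
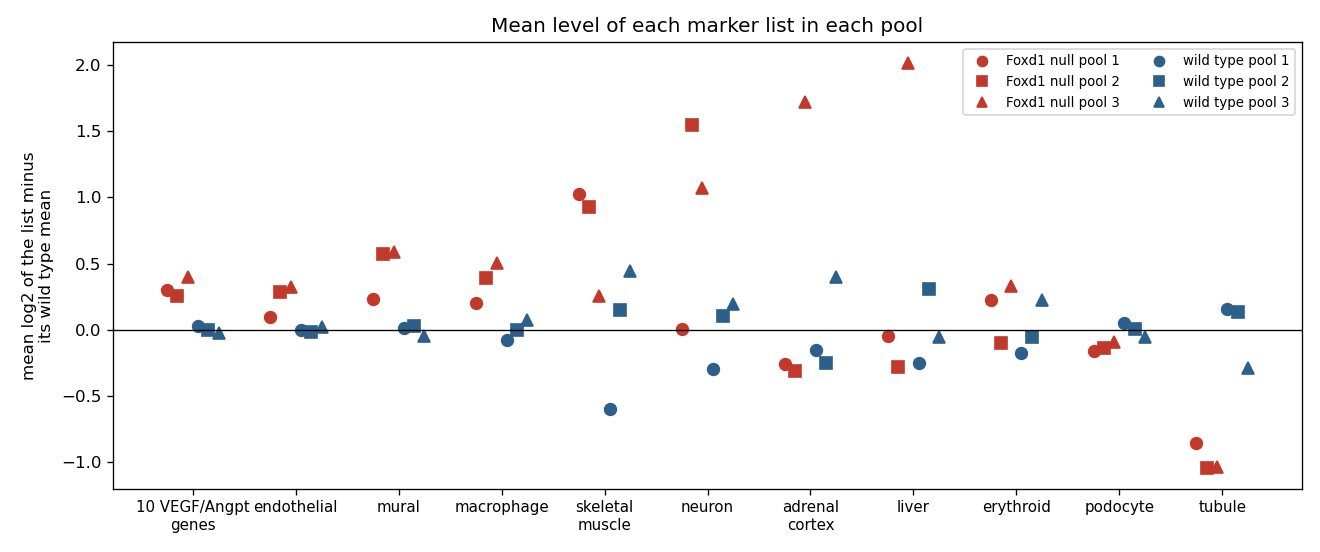
Mean log2 level of each gene list in each pool minus its mean over the 3 wild type pools (vertical axis), with null-labelled pools in red and wild type pools in blue. Circles, squares and triangles are pools 1, 2 and 3. The 10 genes and the endothelial and mural lists are higher in all 3 null-labelled pools, while the adrenal and liver lists are high in null-labelled pool 3 and the neuron list in pools 2 and 3.

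Markers of tissues next to the kidney also differed among pools. The mean of 9 adrenal cortex markers was 8.55 in null-labelled pool 3 and between 6.52 and 7.23 in the other 5 pools, and that of 10 liver markers was 8.62 in that pool and between 6.33 and 6.92 in the others. The mean of 11 neuron markers was 7.07, 8.61 and 8.13 in the null-labelled pools, against 6.76 to 7.26 in the wild type pools. The mean of 12 skeletal muscle markers was 8.42, 8.33 and 7.66 in the null-labelled pools, against 6.80 to 7.84 in the wild type pools. Passing members of these lists were Tnnt3, a muscle troponin (rose by 1.09), and Elavl4, a neuronal RNA-binding protein (rose by 0.62). Neither passed under quantile normalization (adjusted p = 0.0605 and 0.0551), and each passed in 1 of 6 fits that left out 1 pool, Tnnt3 without null-labelled pool 3 and Elavl4 without null-labelled pool 1. The neuron count was 8 in that last fit. Named by level where no member of a list passed, Fdx1 and Scarb1 of the adrenal list had differences of 0.088 and 0.48, and Apoa2 and Trf of the liver list 0.77 and 0.97. No array value is a true zero, so no marker can be called absent.

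In null-labelled pool 1 the neuron, adrenal and liver means did not exceed the highest wild type pool, although its muscle mean was the highest of all 6 pools. Null-labelled pools 2 and 3 were therefore left out in a further comparison, a choice made after the data were seen. In null-labelled pool 1 alone Angpt2 was 0.77 above the wild type mean. Angpt1 was 0.54 above the wild type mean, Tek 0.43 and Kdr 0.30. A single pool holds no spread among null-labelled pools, so only the sizes of these differences are given. In the same pool the endothelial marker mean was 0.094 above the wild type mean. The part of these tissues in the differences of the other pools was not tested.

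Beyond the 10 genes, 17 others of the same pathways were examined: further ligands, co-receptors, factors that process or bind the ligands, and effectors inside the cell. Of these 4 rose, 0 fell and 13 did not pass, and their median difference was 0.075. Nrp2, a co-receptor for Vegfc that also binds semaphorins in neurons, stood at 8.42, 9.17 and 8.79 in the null-labelled pools and at 7.78, 7.93 and 8.10 in the wild type pools. Its groups did not overlap and its difference was 0.86 (SE 0.17, adjusted p = 0.0282), but null-labelled pool 2, where it was highest, also had the highest neuron marker mean, and the part of neurons in it was not tested. Nrp1, the co-receptor of Kdr, stood at 9.99, 10.18 and 10.07 in the null-labelled pools and at 9.68, 9.76 and 9.49 in the wild type pools. It rose by 0.43 without overlap (SE 0.09, adjusted p = 0.04), but missed under quantile normalization (adjusted p = 0.0632) and median centring (adjusted p = 0.0529). The order of Nrp1 among the null-labelled pools was also that of the neuron marker mean, and the part of neurons in it was not tested. Nrp1 and Nrp2 each passed in 7 of 15 alternative fits, and in 1 of the 6 that left out 1 pool, that without null-labelled pool 1.

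The remaining rises were of genes that act on the angiopoietin receptors. Ptprb, the endothelial phosphatase that switches off Tek, stood at 8.27, 8.39 and 8.62 in the null-labelled pools and at 7.80, 7.83 and 7.86 in the wild type pools. The wild type values were tightly grouped and the difference was 0.60 (SE 0.09, adjusted p = 0.0105), which passed in 4 of 6 fits that left out 1 pool and missed without wild type pool 1 or 2. Svep1, a large matrix protein that in zebrafish and mouse is needed for lymphatic vessel remodelling, stood at 8.44, 8.41 and 8.59 in the null-labelled pools and at 7.97, 7.92 and 7.79 in the wild type pools. It rose by 0.59 (SE 0.08, adjusted p = 0.00665) and passed in all 6 such fits, though not when all rows of the array were tested (adjusted p = 0.062). The authors' deposited table gives Ptprb a fold of 1.56 and Svep1 one of 1.62. Its p-values, by an unstated test, are 0.143 for Ptprb and 0.00315 for Svep1. The effectors inside the cell did not pass: Plcg1, the phospholipase that docks on Kdr, differed by 0.084, Foxo1, a transcription factor held in check by Tek signalling, by -0.020, and Nos3, the endothelial nitric oxide synthase, by 0.17 (adjusted p = 0.381). The ligands Vegfb, Vegfd and Angpt4 differed by -0.047, 0.082 and -0.045. The count of 4 dropped to 1 if wild type pool 1 or 2 was left out and to 2 if null-labelled pool 2, null-labelled pool 3 or wild type pool 3 was.

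**Figure D4:**
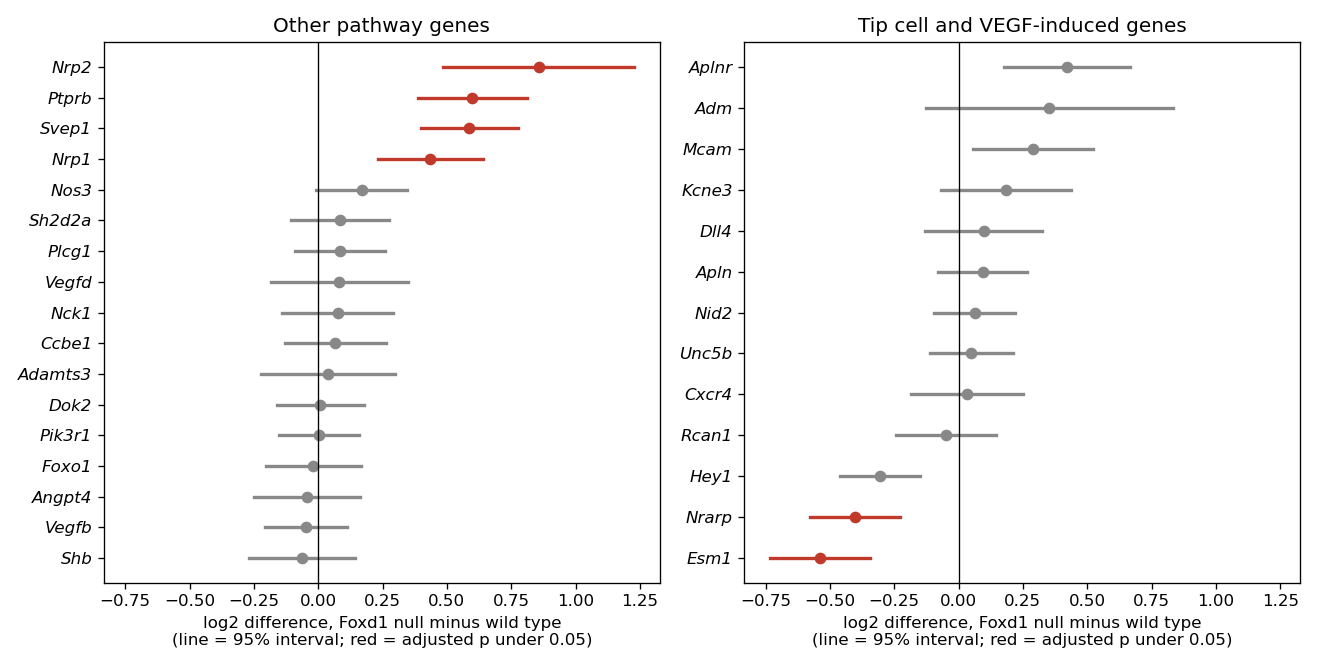
Log2 difference between null-labelled and wild type pools with 95% intervals (horizontal axis) for 17 other pathway genes on the left and 13 genes of tip cells or induced by VEGF on the right. Red marks adjusted p under 0.05. Nrp2, Ptprb, Svep1 and Nrp1 are higher in the null-labelled pools, and Nrarp and Esm1 are lower.

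Genes of endothelial tip cells, the leading cells of a sprout, and genes that VEGF induces in endothelium did not follow the receptors as a list. Of 13 such genes 0 rose, 2 fell and 11 did not pass, with a median difference of 0.062. Esm1, a secreted proteoglycan of tip cells, stood at 6.99, 6.83 and 6.80 in the null-labelled pools and at 7.39, 7.53 and 7.32 in the wild type pools. Its groups did not overlap, and its log2 level fell by 0.54 (SE 0.09, adjusted p = 0.0122). Nrarp, a Notch-induced feedback regulator found in endothelium and other tissues, fell by 0.40 (SE 0.08, adjusted p = 0.0282), and its null-labelled values of 6.66, 6.52 and 6.59 lay below the wild type values of 6.90, 7.06 and 7.03. Hey1 was lower without overlap, with a difference of -0.31 that did not pass (adjusted p = 0.0534). Aplnr, the apelin receptor of sprouting vessels and veins, lay on the other side with a difference of 0.42 that did not pass (adjusted p = 0.0884). Of the 13 genes 2 were higher without overlap and 3 lower, against 11.5% and 8.04% of all genes. Leaving out 1 pool moved the count of falls to 0 (null-labelled pool 2, wild type pool 1 or wild type pool 2) or 1 (null-labelled pool 3 or wild type pool 3), and it had 3 rises and 2 falls when null-labelled pool 1 was left out.

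Vegfc and Flt4 were set beside 7 lymphatic markers, of which 2 rose, 0 fell and 5 did not pass, with a median difference of -0.035. Prox1, the transcription factor that gives lymphatic endothelium its identity, stood at 7.21, 8.20 and 8.06 in the null-labelled pools and at 6.50, 6.79 and 6.99 in the wild type pools. It rose by 1.07 (SE 0.23, adjusted p = 0.0446). It is also a gene of neurons, and its order among the null-labelled pools was that of the neuron marker mean, whose part in it was not tested. Mmrn1, a multimerin of lymphatic endothelium and platelets, rose by 0.93 (SE 0.15, adjusted p = 0.0139). Lyve1, a hyaluronan receptor of lymphatic vessels and macrophages, had a difference of 0.30 (adjusted p = 0.388), Pdpn, a mucin-like protein of lymphatic endothelium and podocytes, one of -0.035 and Reln one of -0.37 (adjusted p = 0.25). For Lyve1 the authors' deposited table gives a signed fold of -1.05, the opposite direction. The pool order given for Prox1 was also that of Mmrn1, Lyve1 and Reln, and not that of Pdpn, Itga9 and Foxc2. It is thus not particular to Prox1, and neuron and lymphatic sources cannot be told apart here. The count of 2 became 3 without null-labelled pool 1, 1 without wild type pool 2 and 0 without any of the other 4.

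Mural cells, a source of angiopoietins, were read from 14 markers, of which 5 rose, 0 fell and 9 did not pass (3 rises if null-labelled pool 2 or 3 or wild type pool 1 or 2 was dropped, 4 if wild type pool 3 was and 6 if null-labelled pool 1 was). Their mean was 7.88, 8.22 and 8.24 in the null-labelled pools and 7.66, 7.67 and 7.60 in the wild type pools, without overlap. The smooth muscle actin Acta2 rose by 1.46 (SE 0.12), the pericyte regulator Rgs5 by 1.21 (SE 0.14), the actin-binding protein Tagln by 1.08 (SE 0.16) and Olfml2b by 0.88 (SE 0.17). Among the 9 markers that did not pass, Abcc9 had a difference of 0.33, Ndufa4l2 one of 0.30 and Pdgfrb one of 0.27. Des had one of 0.20 and Notch3 one of 0.18. Cspg4 had a difference of 0.070, Kcnj8 one of 0.066, Higd1b one of 0.0039 and Anpep one of -0.34. Of all 14 markers 13 had a difference above 0, with a median of 0.28. Groups without overlap, all higher, were found in 7 of the 14, against 11.5% of all genes as higher. The mural, endothelial and macrophage means and Angpt2 were all lowest of the null-labelled pools in pool 1, whereas Angpt1 was highest there. Values of whole kidneys do not tell mural cells from other smooth muscle, so the cells behind these markers were not resolved. The part of mural cells in the Angpt2 difference was not tested.

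The cells that make Vegfa in the kidney were read from podocyte and tubule markers, and both lists had median differences below 0, -0.25 for podocytes and -0.87 for tubules. Of 9 podocyte markers 0 rose and 2 fell. Clic5, a chloride channel protein of foot processes, fell by 0.49 (SE 0.09). Wt1, a transcription factor not confined to podocytes in the embryonic kidney, fell by 0.34 (SE 0.07). The 7 others did not pass, and they lay on both sides of 0. Lower without overlap were Tcf21, with a difference of -0.35 (adjusted p = 0.0828 by limma), and Podxl, with -0.25. Ptpro had a difference of -0.35 with overlap, and Nphs1, the slit diaphragm protein nephrin, one of -0.021. Higher without overlap were Synpo, an actin-binding protein of foot processes, with 0.29 (adjusted p = 0.2) and the phospholipase Plce1 with 0.21 (adjusted p = 0.282). Cdkn1c had a difference of 0.12 with overlap. The count of falls was 3 without null-labelled pool 1, 1 without wild type pool 3 and 0 without any of the other 4. The podocyte mean was 8.001, 8.02 and 8.07 in the null-labelled pools and 8.21, 8.17 and 8.11 in the wild type pools. Of 10 tubule markers 0 rose and 8 fell. Among them the salt cotransporter Slc12a1 fell by 2.14 (SE 0.27) and the peptidase Dpp4 fell by 1.88 (SE 0.21). The endocytic receptor Lrp2 fell by 1.59 (SE 0.20) and the scaffold protein Pdzk1 fell by 0.94 (SE 0.14). Beside these falls the Vegfa difference was -0.079, with the interval given above, and the part of these cells in it was not tested. Of 15 genes of oxygen sensing and hypoxia response, a pathway that induces Vegfa, 0 passed by limma, 1 had an unadjusted p under 0.05 and 12 had a difference above 0, with a median of 0.12. Their mean was 8.75, 8.68 and 8.76 in the null-labelled pools, against 8.64, 8.58 and 8.64 in the wild type pools. These groups did not overlap (difference 0.11, exact two-sided permutation p = 0.1, the smallest possible). The abundant glycolytic targets Pgk1 and Ldha differed by 0.045 (adjusted p = 0.858) and 0.13 (adjusted p = 0.637), and Epas1, an oxygen-regulated factor of endothelium, by 0.47 (adjusted p = 0.247).

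**Figure D5:**
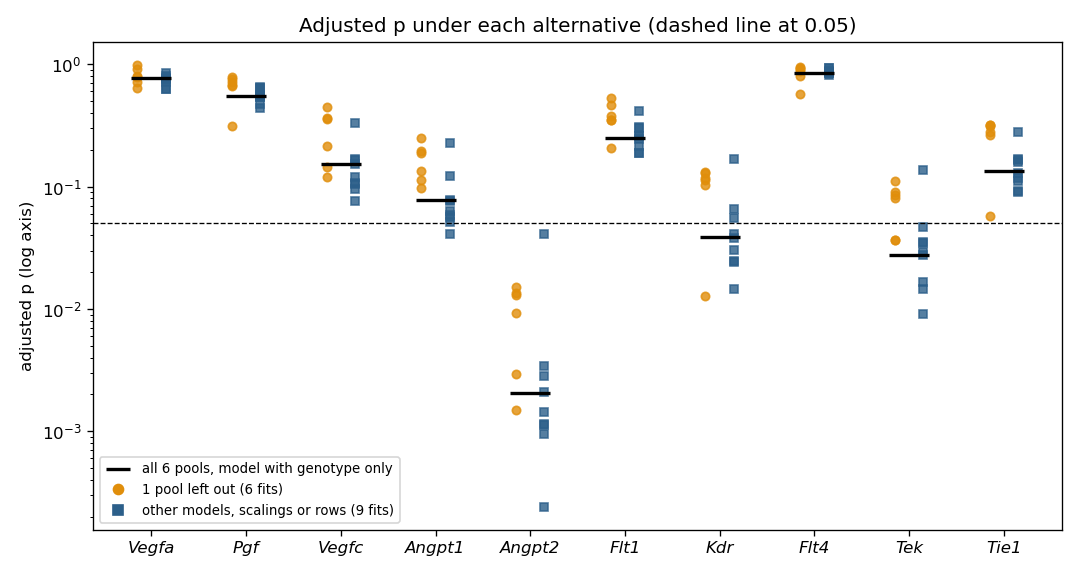
Adjusted p (vertical log axis) of each of the 10 genes in the fit to all 6 pools (black bar), in 6 fits that leave out 1 pool (orange circles) and in 9 other models, scalings or row choices (blue squares). The dashed line is at 0.05. Angpt2 lies below the line in all fits shown, Tek and Kdr lie on both sides, and Angpt1 passes in 1 of 15.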

How the data were processed

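Expression was measured in 6 pools of embryonic kidneys. NuGEN whole-transcript amplification started from 50 ng of RNA and the product carried biotin, per the labels' protocols. The authors deposited log2 values, 1 column per pool. No source used here names the program that summarised and normalized them. Base 2 was read from the values: their differences had a slope of 1.50 on the log folds of the authors' deposited table, where 1 over ln 2 is 1.44. That table of 488 probe sets holds a signed linear fold, p-values of unstated tests and group medians in natural log units, per the file headers. The values came without a genome build.

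Gene symbols came from the platform annotation: 21789 of 35556 rows had exactly 1 symbol, and the row with the highest mean was kept per gene, with no filter. Differences between genotypes were tested in R 4.3.3 by limma 3.58.1 (lmFit, eBayes, genotype the only term), and p-values were adjusted by Benjamini-Hochberg over 19938 genes. The fit was tested on simulated data. Differences are null-labelled minus wild type means, with the model's SE. Because pools share litters, p-values are for pools that are not fully independent. Single scores were compared by exact permutation of the pools. Alternatives were variance models, array weights, scalings, a filter on low rows, other row choices, a replicate block, leaving out pools and the endothelial content. Figures were drawn with Python 3.11.15 and matplotlib 3.10.9.

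Members and lists were chosen with earlier results of these data known. All 10 members are named, with up to 4 genes per list past the threshold by size of difference, or else the 2 of highest level. The lists were other pathway genes, endothelium, tip cells, lymphatics, mural cells, podocytes, tubules, hypoxia, stroma, macrophages, muscle, neurons, adrenal, liver and erythroid cells. Of their 204 genes, with the 10 members, 196 were measured. Epas1, Plcg1, Foxo1, Nos3, Vegfb, Vegfd, Angpt4, Aplnr, Lyve1, Pdpn, Reln, Synpo, Plce1, Nphs1, Cspg4, Kcnj8, Higd1b and Anpep were chosen after their values were seen. So were Itga9, Foxc2, Tcf21, Podxl, Ptpro, Cdkn1c, Abcc9, Ndufa4l2, Pdgfrb, Des, Notch3, Hey1, Aldh1a2, Col1a1 and Col3a1.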

Additional observations from a re-analysis of the deposited data

How the results depend on the processing

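The number of members past the threshold, 3 with all 6 pools, was between 1 and 3 when 1 pool was left out. It was 1 when all rows of the array were tested and 0 with the endothelial covariate. Angpt2 was among them in each of these but the last. The members were 3 without null-labelled pool 1, 2 without wild type pool 1 and 1 without any of the other 4. Over all genes 326 were higher and 153 lower; leaving out 1 pool gave 127 to 572 higher and 64 to 171 lower, testing all rows 71 and 37, and null-labelled pool 1 alone 25 and 21. The same-numbered pools had correlations of their deviations of 0.12, 0.068 and 0.053, and every pool correlated best with its own number, a hint from the data and not the design. With the replicate block 2 members passed, Angpt2 and Tek, Kdr had adjusted p = 0.0657, and 381 genes were higher and 158 lower. With quantile normalization Kdr had adjusted p = 0.0552. Angpt1 passed with the trend and robust variance model (adjusted p = 0.0412). The number of members without overlap, all higher, was 7 or 8 when 1 pool was left out, and 7 under both scalings. Groups separate more easily with fewer pools, and the share of all genes without overlap was not counted in these settings. The angiopoietin balance was 0.40 to 0.72, Kdr against Vegfa 0.41 to 0.66 and the endothelial mean 0.19 to 0.31 when 1 pool was left out. Genes that did not pass changed sign. Flt4 went to -0.031 without null-labelled pool 3 (up to 0.12 without another), -0.072 with null-labelled pool 1 alone, -0.17 with the endothelial covariate and -0.18 after subtraction. Pgf went to -0.084 after subtraction and Vegfa to 0.0038 with the covariate. When 1 pool was left out Fdx1 lay between -0.40 and 0.36, Apoa2 between -0.34 and 1.47, Hbb-y between -0.081 and 0.32 and Hba-x between -0.29 and 0.29, and Hba-x was 0.019 with array weights. Fits without 1 pool have fewer samples, and the test over all rows has more features to adjust over; the cause of other changes was not tested. With all rows tested the pathway, endothelial, lymphatic, macrophage, neuron and muscle lists had 0 rises, the tip cell and podocyte lists 0 falls, the mural list 1 rise, the stromal list 3 rises and 0 falls and the tubule list 2 falls. Under the replicate block the neuron list had 4 rises, the podocyte list 1 fall (Wt1 adjusted p = 0.0653) and the tip cell list 1 fall, and Tnnt3 had adjusted p = 0.0539. With the trend and robust model Tnnt3 had adjusted p = 0.216 and Nrp2 0.0539, and under quantile normalization the pathway list had 2 rises.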

Other observations

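Macrophage markers were higher too. Of 12 markers 4 rose, 0 fell and 8 did not pass (1 rise if null-labelled pool 2 or wild type pool 1 was dropped, 2 if wild type pool 2 or 3 was, 3 if null-labelled pool 3 was and 6 if null-labelled pool 1 was): the protease Ctss by 0.69 (SE 0.13), the mannose receptor Mrc1 by 0.65 (SE 0.10), the adaptor Tyrobp by 0.59 (SE 0.09) and the phosphatase Ptprc by 0.42 (SE 0.08). The mean of the 12 was 7.33, 7.52 and 7.63 in the null-labelled pools, against 7.05, 7.13 and 7.20 in the wild type pools, so these groups did not overlap. Single macrophage markers had groups without overlap, all higher, in 7 of the 12, against 11.5% of all genes as higher. Stromal genes moved both ways: of 12, 7 rose, 2 fell and 3 did not pass (6 or 7 rises and 1 fall when any 1 pool was left out). The 4 largest differences past the threshold were rises. They were of the proteoglycans Lum (1.62, SE 0.16) and Dcn (1.36, SE 0.09) and the transcription factors Tbx18 (0.89, SE 0.10) and Osr1 (0.84, SE 0.12). The authors' deposited table gives the stromal gene Aldh1a2 a signed fold of -1.85, against 2.49 for Dcn, 1.72 for Col1a1 and 1.51 for Col3a1. Of 10 erythroid genes 0 passed by limma and 2 had an unadjusted p under 0.05; the embryonic globins Hbb-y and Hba-x differed by 0.093 and -0.093.

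Among 9968 genes at or above the median level, the values of Angpt2 over the 6 pools were most like those of Matn2 (Pearson r = 0.996), Trafd1 (r = 0.995) and Stard9 (r = 0.994). The Tek values were most like those of Ahnak (r = 0.994), Eml1 (r = 0.993) and Thbs1 (r = 0.992). The Kdr values were most like those of Sbf1 (r = 0.994), Tie1 (r = 0.993) and Fkbp9 (r = 0.992). These are descriptions over 6 pools that share the genotype difference. For deviations from the genotype means the correlation with Angpt2 was 0.951 for Matn2, 0.916 for Trafd1 and 0.9896 for Stard9, and that of Tie1 with Kdr was 0.967. With so few pools many genes come this close: 12 lay above r = 0.99 with Angpt2, 6 with Tek and 8 with Kdr.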
